A study of Mus musculus with 8 samples.

Results

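The genes described here are alcohol dehydrogenases, aldo-keto reductases and carbonyl reductases, enzymes that move hydride between alcohols or sugars and the matching aldehydes or ketones, together with the esterase Esd that follows Adh5 in the clearance of formaldehyde. They were taken by gene symbol from a list of 10 names (Adh5, Adh1, Adh7, Akr1a1, Akr1b3, Akr1b8, Akr7a5, Esd, Cbr1 and Cbr3), of which 9 were among the 14145 genes of the table. Adh7 was not among the genes analysed here. The libraries were RNA-seq of primary tubular epithelial cells (TECs) of mouse kidney, 4 from Aldh2TEC-KO mice, called KO 1 to 4, and 4 from Aldh2Ctrl mice, titled and called WT 1 to 4. By its name the KO strain lacks Aldh2, the mitochondrial aldehyde dehydrogenase, in these cells. All cells were grown in DMEM/F12 with fetal bovine serum and antibiotics and received no treatment. The genotype field of KO 2 to 4 names other ALDH genes than ALDH2, so groups follow the titles. The labels give neither strain, age, the promoter behind the deletion nor the number of mice, and p-values therefore rest on library-to-library spread alone, part of which may be technical.

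Aldehydes are removed from cells by oxidation to acids, which is the work of aldehyde dehydrogenases such as Aldh2, or by reduction to alcohols, which is the work of most enzymes described here. Cytosolic Adh5 oxidises the adduct of formaldehyde and glutathione, and Esd then splits the product into formate and glutathione. Aldo-keto reductases and the carbonyl reductases of the short-chain dehydrogenase family use NADPH to reduce sugar aldehydes, lipid-derived aldehydes, quinones and prostaglandins. In the kidney, aldose reductase (Akr1b3) is known for making sorbitol as an osmolyte in the medulla.

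Values are FPKM, read or fragment counts corrected for the length of the gene and the depth of the library. The length counts all annotated exons, used or not in these cells, so the order of levels between genes depends on it. Fold changes are KO over WT on log2(FPKM + 1), tested with limma on all genes with Benjamini-Hochberg adjustment, and a gene counts as called at an adjusted p below 0.05. Depth recovered from the values was 17890000 to 18760000 reads or fragments per KO library and 17050000 to 17760000 per WT library. Aldh2 averaged 1.24 ± 0.31 FPKM in KO and 26.4 ± 3.24 FPKM in WT libraries (SD, n = 4 each; limma adjusted p = 3.43e-05). All 10 pan-epithelial markers of a fixed list were measured, at summed levels of 939 to 8110 FPKM in KO and 1790 to 4200 FPKM in WT libraries. On the log2 scale 5 of them had a higher and 5 a lower KO mean. Epcam averaged 61.4 ± 34.3 FPKM in KO and 132 ± 34.5 FPKM in WT (SD, n = 4 each). Cdh1 averaged 78.8 ± 57.1 FPKM in KO and 163 ± 53.9 FPKM in WT. Krt8 went the other way, at 1520 ± 1460 FPKM in KO and 983 ± 415 FPKM in WT (SD, n = 4 each). Of 14 proximal tubule markers 6 were measured (summed 7.62 to 49.6 FPKM in KO and 19.1 to 56.3 FPKM in WT libraries), and Slc34a1, Slc5a2 and Cubn were not among the genes analysed. Xist, the transcript of the inactive X, read 14.5 FPKM in KO 1 and 38.3 FPKM in KO 2 and at most 0.0064 FPKM elsewhere. Y-linked transcripts marked KO 3, KO 4 and the WT libraries as male. The Y-linked Uty, Kdm5d, Eif2s3y and Ddx3y were nevertheless lower in KO 3 and KO 4 than in every WT library. Ddx3y, for example, read 1.48 and 4.39 FPKM in KO 3 and KO 4 and 6.15 to 15.5 FPKM in WT. The cause of this was not tested. KO 3 and KO 4 were the lowest libraries in mt-Co1, a mitochondrially encoded transcript (1708.63 and 1980.31 FPKM). It was at 6328.43 and 6215.38 FPKM in KO 1 and KO 2 and at 4597.19 to 9865.12 FPKM in WT. Of 14 macrophage and leukocyte markers all were measured, with sums of 242 to 1770 FPKM in KO and 105 to 1070 FPKM in WT libraries and 13 of 14 higher on average in KO. 1 of these markers was at 0 in WT 4. The measured markers of endothelium (3 of 8, without Pecam1 and Cdh5), loop of Henle and distal tubule (3 of 9, without Umod and Slc12a1) and collecting duct (3 of 9, without Aqp2) all had lower KO means. Their sums were 1.55 to 3.29 FPKM in KO and 5.1 to 7.16 FPKM in WT for endothelium, 2.0 to 5.13 FPKM in KO and 6.19 to 36.9 FPKM in WT for loop and distal tubule, and 0.649 to 16.7 FPKM in KO and 6.38 to 26.4 FPKM in WT for collecting duct. Of 10 fibroblast and pericyte markers 7 were measured, 2 higher and 5 lower on average in KO. They summed to 591 to 1770 FPKM in KO and 134 to 1180 FPKM in WT libraries. Acta2, among the 2 higher ones, made up most of these sums, at 561 to 1750 FPKM in KO and 98.4 to 726 FPKM in WT. Pdgfrb and Col3a1 were lower in every KO than in every WT library, which held for 6.86% of all genes. The same held for Eng and Esam of the endothelial, Slc4a4 of the proximal tubule and Cldn19 of the loop and distal tubule markers. The part of these cell-type markers in the results was not tested. In bulk samples, fewer cells of a type and less RNA per cell cannot be told apart.

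Of the 9 genes, 8 had a higher mean on the log2 scale in KO than in WT libraries and Adh1 a lower one. None was called by limma with all 8 libraries (0 of 9; 0.0778% of all genes were called), none by limma-voom on recovered reads, and 4 had an unadjusted p below 0.05, all with KO higher (7.58% of all genes had such a p with KO higher, 19.2% in either direction). For those 4 genes, Adh5, Akr1a1, Cbr1 and Cbr3, every KO library lay above every WT library, which held with KO higher for 4.76% of all genes. The median log2 fold change of the 9 genes was 0.45, beside -0.06 over all genes, and 44.5% of all genes had a positive one. Their median annotated exon length was 2554 bases, beside 3953.5 over all genes. With a fitted length and GC trend removed, log2 fold changes were 0.79 for Cbr3, 0.56 for Cbr1, 0.54 for Akr1a1 and 0.58 for Adh5. They were 0.52 for Esd, 0.49 for Akr1b3, 0.09 for Akr1b8, -0.03 for Akr7a5 and -1.1 for Adh1, and none was called. The part of length in these values was not tested. Together the 9 genes summed to 512.9 to 711.6 FPKM in KO and 399.7 to 496.8 FPKM in WT libraries, or 0.186% to 0.230% of all FPKM of the library in KO and 0.148% to 0.178% in WT. In the authors' deposited table none of the 9 has an adjusted p below 0.05 (0.375% of all genes do), and Cbr3 alone carries an up mark (2.34% of all genes do) at an adjusted p of 0.214.

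**Figure D1:**
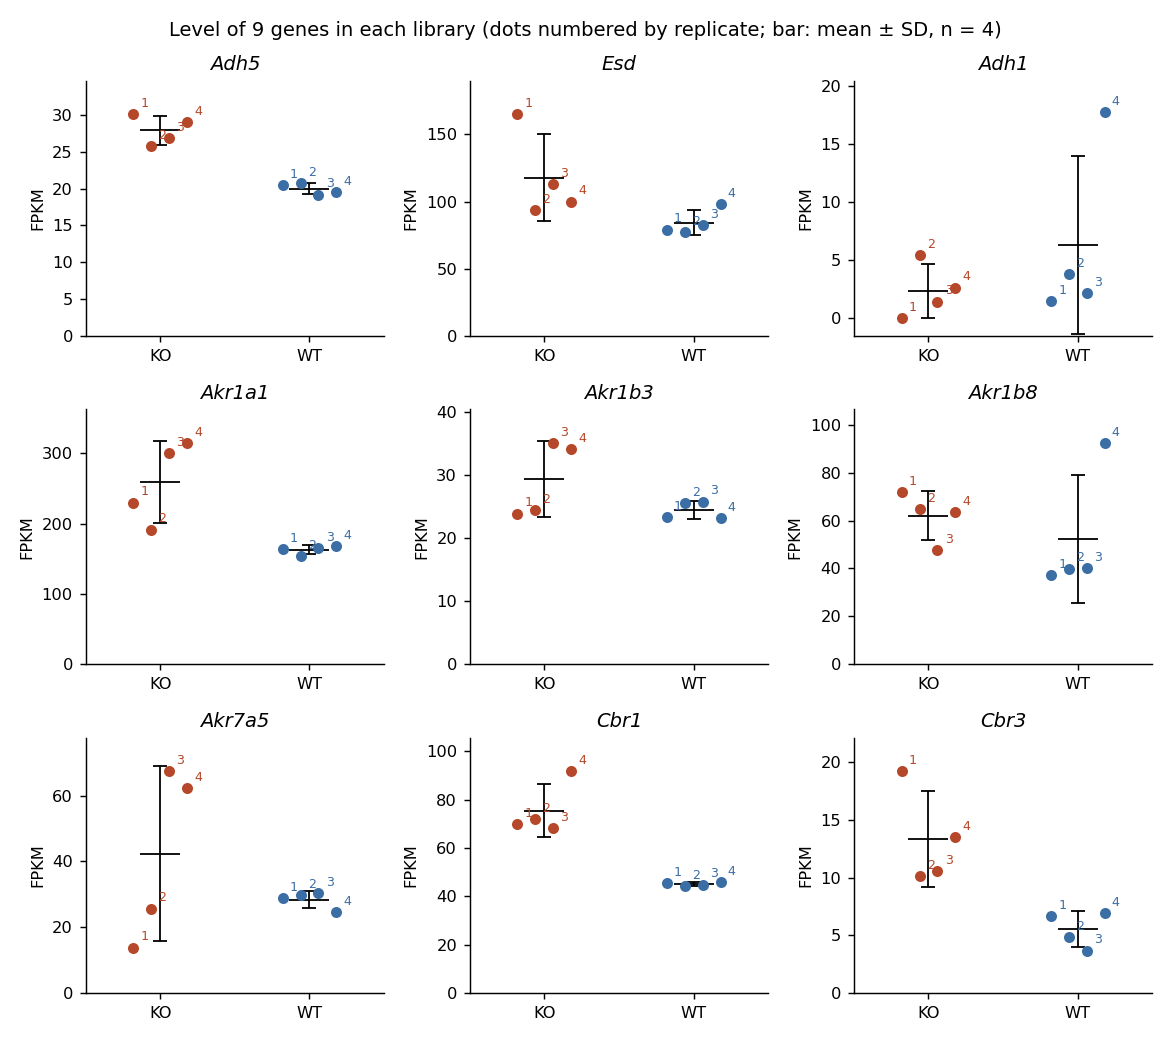
Level of each of the 9 genes in FPKM (vertical axes), with KO libraries on the left and WT libraries on the right of each panel; dots are libraries numbered by replicate, and bars give the mean ± SD (n = 4). For Adh5, Akr1a1, Cbr1 and Cbr3 the lowest KO dot lies above the highest WT dot, for Akr7a5 the KO dots spread from 13.75 to 67.44 FPKM, and for Adh1 and Akr1b8 WT 4 stands above the other WT libraries.

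By FPKM, Akr1a1 was the most abundant of the 9 transcripts and Esd the next in all 8 libraries. Cbr1 and Akr1b8 came after them in 7 of 8 libraries, in either order, and in KO 3 Akr7a5 stood ahead of Akr1b8. Akr7a5, Akr1b3 and Adh5 followed close together in every WT library, at 24.64 to 30.43, 23.13 to 25.80 and 19.16 to 20.72 FPKM, so the first 2 of these overlap. Cbr3 and Adh1 were lowest in 7 of 8 libraries, the exception being KO 1, where Akr7a5 stood below Cbr3. By mean level over all 8 libraries Akr1a1 lay at percentile 98.8 of all genes, Esd at 96.9, Cbr3 at 62.1 and Adh1 at 42.1. Akr1a1 alone made up 36.8% to 44.8% of the sum in KO and 33.9% to 40.2% in WT libraries.

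Adh5, alcohol dehydrogenase class III, also acts on S-nitrosoglutathione. Adh5 (ENSMUSG00000028138; GRCm38 chromosome 3, 138443093 to 138455499, plus strand) was at 30.07, 25.79, 26.85 and 28.96 FPKM in KO 1 to 4 and at 20.47, 20.72, 19.16 and 19.48 FPKM in WT 1 to 4. Both groups were tight and apart from each other, with coefficients of variation of 6.98% in KO and 3.78% in WT (n = 4 each). The means stood at a ratio of 1.4, KO over WT, and the log2 fold change was 0.46 (SE 0.14, 95% interval 0.15 to 0.77, limma adjusted p = 0.164). It was also 0.46 without KO 1 and KO 2 and without KO 3 and KO 4, and both pairs of KO libraries had a mean of 27.9 FPKM. Among the 9 genes the KO libraries varied least in Adh5.

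Esd, the S-formylglutathione hydrolase, takes the next step. Esd (ENSMUSG00000021996; chromosome 14, 74732297 to 74750765, plus strand) was at 164.95, 93.47, 112.98 and 100.03 FPKM in KO 1 to 4 and at 79.18, 77.52, 82.58 and 98.38 FPKM in WT 1 to 4. KO 1 was highest, and WT 4 lay above KO 2, so the groups overlapped. Esd had a log2 fold change of 0.45 (SE 0.21, 95% interval -0.03 to 0.92, limma adjusted p = 0.282), and one of 0.27 without KO 1. Within a library Esd exceeded Adh5 by 2.01 ± 0.30 in KO and by 2.02 ± 0.19 in WT on log2(FPKM + 1) (SD, n = 4 each). The difference was -0.02 (2-sided exact permutation p = 0.914). The pseudogene Esd-ps read 0.66 to 1.67 FPKM in KO and 0.532 to 1.03 FPKM in WT libraries, and reads shared by Esd and its pseudogene could be split between them.

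Adh1, the class I enzyme that oxidises ethanol and retinol, was the least abundant and the most variable gene. Adh1 (ENSMUSG00000074207; chromosome 3, 138260991 to 138290698, plus strand) was listed at 0 FPKM in KO 1 and read 5.46, 1.43 and 2.64 FPKM in KO 2 to 4, against 1.48, 3.81, 2.19 and 17.74 FPKM in WT 1 to 4. A count of 3 reads in KO 1 would give 0.073 FPKM (counting error only). WT 4 alone stood far above the rest, and the other 7 libraries overlapped. For Adh1 the log2 fold change was -0.91 (SE 0.70, 95% interval -2.47 to 0.65, limma adjusted p = 0.469). It was -0.29 without WT 4, -0.42 without KO 1, -1.69 with a pseudocount of 0.1 and -2.46 by limma-voom on recovered reads, so its size depends on the pseudocount and on single libraries. The summed proximal tubule markers were also highest in WT 4 and KO 2, the libraries highest in Adh1, at 56.3 and 49.6 FPKM, against 7.62 to 22.5 FPKM in the other KO and 19.1 to 24.9 FPKM in the other WT libraries. Their part in the Adh1 values was not tested. Adh1 and Adh5 lie 152.4 kb apart on chromosome 3, and Adh4, Adh6a and Adh6b, annotated between them, were not among the genes analysed here.

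Among the aldo-keto reductases, Akr1a1, the aldehyde reductase that turns glucuronate into gulonate on the path to ascorbate in mice, was apart between the groups. Akr1a1 (ENSMUSG00000028692; chromosome 4, 116636510 to 116651680, minus strand) was at 229.70, 191.46, 300.33 and 314.76 FPKM in KO 1 to 4 and at 163.31, 153.40, 165.37 and 168.23 FPKM in WT 1 to 4. The WT libraries varied by 3.96% (coefficient of variation) and the KO libraries by 22.5%, with KO 3 and KO 4 highest. On the log2 scale the fold change of Akr1a1 was 0.64 (SE 0.21, 95% interval 0.17 to 1.11, limma adjusted p = 0.182). It was 0.92 without KO 1 and KO 2 (limma adjusted p = 0.00332) and 0.37 without KO 3 and KO 4 (limma adjusted p = 0.336).

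Akr1b3 and Akr1b8 are neighbours on chromosome 6, 36.6 kb apart with no protein-coding gene annotated between them. Akr1b3, aldose reductase (ENSMUSG00000001642; 34302434 to 34317478, minus strand), was at 23.90, 24.39, 35.12 and 34.17 FPKM in KO 1 to 4 and at 23.32, 25.55, 25.80 and 23.13 FPKM in WT 1 to 4. KO 1 and KO 2 lay among the WT libraries and KO 3 and KO 4 above all of them. Akr1b3 had a log2 fold change of 0.24 (SE 0.18, limma adjusted p = 0.462) with all libraries and -0.02 without KO 3 and KO 4. Akr1b8, an aldose reductase-related protein (ENSMUSG00000029762; 34354119 to 34368463, plus strand), was at 71.95, 64.66, 47.70 and 63.39 FPKM in KO 1 to 4 and at 37.28, 39.92, 40.08 and 92.41 FPKM in WT 1 to 4. Here WT 4 was the highest of all libraries, while WT 1 to 3 lay below every KO library. Akr1b8 had a log2 fold change of 0.33 (SE 0.29, limma adjusted p = 0.533), 0.64 without WT 4 (limma adjusted p = 0.271), 0.18 without KO 1 and KO 2 and 0.09 after removal of a fitted length and GC trend. The log2 ratio of Akr1b8 to Akr1b3, with 1 added to each FPKM, was 1.06 ± 0.51 in KO and 0.96 ± 0.66 in WT (SD, n = 4 each). The difference was 0.09. FPKM divides by all annotated exon bases, 8384 for Akr1b3 and 1499 for Akr1b8. Recovered reads were 3362 to 5523 for Akr1b3 and 965 to 2402 for Akr1b8, so the order of the 2 genes depends on that length. The further neighbour Akr1b10 read 7.56 to 11.83 FPKM in KO and 6.69 to 8.84 FPKM in WT libraries. Akr1b8 and Akr1b10 are close paralogues whose reads could be shared.

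Akr7a5, which reduces succinic semialdehyde and the dialdehyde of aflatoxin, divided the KO libraries. Akr7a5 (ENSMUSG00000028743; chromosome 4, 139310744 to 139318426, plus strand) was at 13.75, 25.66, 67.44 and 62.37 FPKM in KO 1 to 4 and at 28.77, 29.74, 30.43 and 24.64 FPKM in WT 1 to 4. KO 1 was below every WT library, KO 2 within their range, and KO 3 and KO 4 above all WT libraries. The mean of KO 3 and KO 4 was 64.9 FPKM, that of KO 1 and KO 2 was 19.7 FPKM and that of the WT libraries was 28.4 FPKM. Its log2 fold change was 0.30 (SE 0.44, 95% interval -0.69 to 1.29, limma adjusted p = 0.708) with all libraries, 1.17 without KO 1 and KO 2 and -0.56 without KO 3 and KO 4. The same pairs of KO libraries differ in sex and in mt-Co1, as given above, and in most but not all epithelial markers. The summed pan-epithelial markers were 8110 and 3990 FPKM in KO 3 and KO 4 and 1750 and 939 FPKM in KO 1 and KO 2. The sum in KO 3 rests mainly on Krt8, Krt18 and Cldn4 (3553.02, 2154.53 and 1320.6 FPKM). Of that list Cdh16, Pax2 and Pax8 were highest in KO 2 among the KO libraries, and the others were higher in KO 3 and KO 4 than in KO 1 and KO 2. Cdh16 was at 203.97 FPKM in KO 2, against 126.99 and 163.9 FPKM in KO 3 and KO 4. The summed collecting duct markers were 16.7 and 9.09 FPKM in KO 3 and KO 4 and 0.649 and 3.01 FPKM in KO 1 and KO 2. The part of any of these in the Akr7a5, Akr1b3 and Akr1a1 values was not tested.

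**Figure D2:**
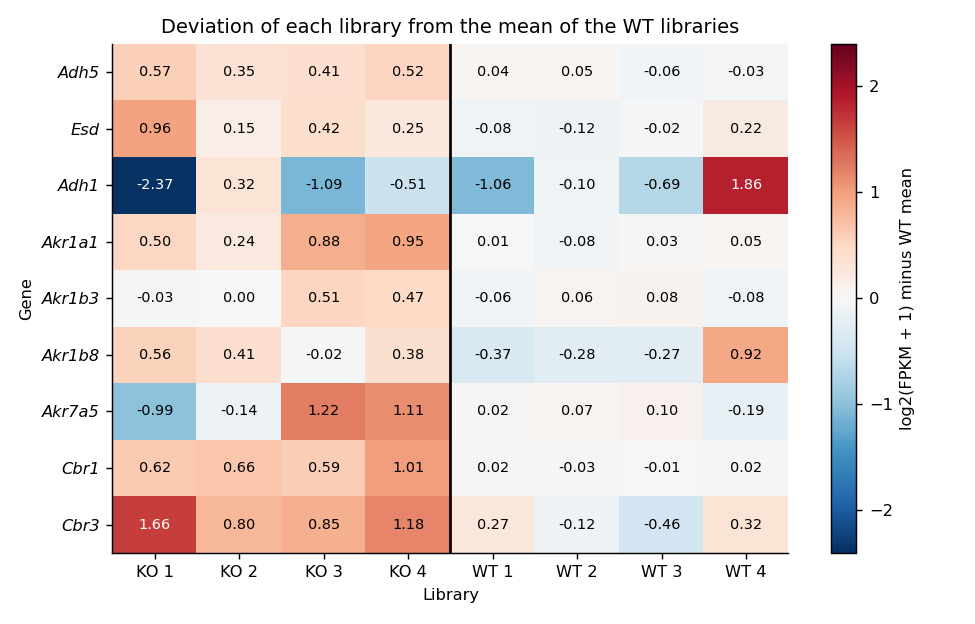
Deviation of each library (columns, KO left and WT right of the black line) from the mean of the WT libraries for each gene (rows), as a difference in log2(FPKM + 1), printed in the cells and coloured from blue (lower) to red (higher). Adh5, Akr1a1, Cbr1 and Cbr3 are positive in all 4 KO libraries, Akr7a5 runs from -0.99 in KO 1 to 1.22 in KO 3, and Adh1 from -2.37 in KO 1 to 1.86 in WT 4.

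The carbonyl reductases Cbr1 and Cbr3 lie 72.7 kb apart on chromosome 16 and had the largest positive log2 fold changes of the 9 genes with all libraries. Without KO 1 and KO 2 Akr7a5 (1.17) stood above Cbr3 (1.02) and Akr1a1 (0.92) above Cbr1 (0.80). Cbr1, which reduces prostaglandins, quinones and anthracyclines (ENSMUSG00000051483; 93607837 to 93610505, plus strand), was at 69.94, 71.89, 68.23 and 91.74 FPKM in KO 1 to 4 and at 45.59, 44.20, 44.79 and 45.83 FPKM in WT 1 to 4. The WT libraries differed by 1.66% (coefficient of variation), the least of the 9 genes, and KO 4 stood above the other KO libraries. Mean Cbr1 was 75.4 FPKM in KO (coefficient of variation 14.5%) and 45.1 FPKM in WT, a ratio of 1.67, at a log2 fold change of 0.72 (SE 0.16, 95% interval 0.37 to 1.07, limma adjusted p = 0.108). Cbr3, a close relative with narrower known substrates (ENSMUSG00000022947; 93683215 to 93690990, plus strand), was at 19.22, 10.13, 10.53 and 13.51 FPKM in KO 1 to 4 and at 6.68, 4.86, 3.66 and 6.95 FPKM in WT 1 to 4. KO 1 was highest, and the lowest KO library still exceeded the highest WT library. The means of Cbr3 were 13.3 ± 4.20 FPKM in KO and 5.54 ± 1.56 FPKM in WT (SD, n = 4 each), a ratio of 2.41, at a log2 fold change of 1.12 (SE 0.25, 95% interval 0.56 to 1.69, limma adjusted p = 0.111). The lowest recovered count of Cbr3 was 81 reads, in WT 3, where counting error alone is 11.1%.

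Cbr3 had the larger fold change of the pair, and the ratio of the paralogues tests that difference. The log2 ratio of Cbr3 to Cbr1 was taken with 1 added to each FPKM. It was -1.81, -2.71, -2.59 and -2.68 in KO 1 to 4 and -2.60, -2.95, -3.30 and -2.56 in WT 1 to 4. On that scale KO 1 was the highest, and the other KO libraries lay within the WT range. The difference between KO and WT was 0.40 (2-sided exact permutation p = 0.257), and 0.19 without KO 1 or 0.26 without WT 3. With a pseudocount of 0.1 the difference was 0.52 (2-sided exact permutation p = 0.2). Adjusted over the 3 ratios tested, p was 0.771 for Cbr3 to Cbr1, 0.914 for Akr1b8 to Akr1b3 and 0.914 for Esd to Adh5 by the exact permutation test, whose smallest possible p with 4 against 4 libraries is 0.0286.

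The promoters of the 4 genes whose groups did not overlap are shown because these genes were higher in the same 4 libraries. Each window of 300 bases from RefSeq (GRCm38.p6) starts 250 bases before the start of transcription and is printed 5′ to 3′ on the strand of the gene, with matches to the GC box GGGCGG, the Sp1-type element, on either strand in capitals.
Adh5, chr3:138442843-138443142, plus strand: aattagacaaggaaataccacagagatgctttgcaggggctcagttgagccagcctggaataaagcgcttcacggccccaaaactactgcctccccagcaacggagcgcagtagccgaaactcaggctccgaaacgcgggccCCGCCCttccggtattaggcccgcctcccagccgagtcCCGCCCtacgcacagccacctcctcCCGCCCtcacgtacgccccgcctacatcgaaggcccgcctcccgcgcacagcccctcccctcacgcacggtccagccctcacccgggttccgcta
Akr1a1, chr4:116651625-116651924, minus strand: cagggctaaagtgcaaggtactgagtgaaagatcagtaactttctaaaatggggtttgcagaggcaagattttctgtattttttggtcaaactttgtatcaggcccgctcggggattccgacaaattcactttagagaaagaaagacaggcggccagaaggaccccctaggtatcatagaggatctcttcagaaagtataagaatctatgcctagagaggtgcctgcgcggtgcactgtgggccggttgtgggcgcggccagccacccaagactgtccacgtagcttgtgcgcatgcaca
Cbr1, chr16:93607587-93607886, plus strand: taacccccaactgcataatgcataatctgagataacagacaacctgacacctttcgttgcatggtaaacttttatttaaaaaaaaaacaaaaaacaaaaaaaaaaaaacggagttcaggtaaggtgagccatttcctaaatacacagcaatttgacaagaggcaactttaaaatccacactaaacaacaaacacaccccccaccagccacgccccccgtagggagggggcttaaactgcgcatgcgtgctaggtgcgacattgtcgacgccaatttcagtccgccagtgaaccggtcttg
Cbr3, chr16:93682969-93683268, plus strand: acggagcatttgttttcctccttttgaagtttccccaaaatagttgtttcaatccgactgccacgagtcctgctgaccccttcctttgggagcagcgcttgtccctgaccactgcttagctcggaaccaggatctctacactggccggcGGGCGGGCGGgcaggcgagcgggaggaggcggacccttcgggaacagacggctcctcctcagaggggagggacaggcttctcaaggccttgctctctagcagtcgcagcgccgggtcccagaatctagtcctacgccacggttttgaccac
The Adh5 window held 3 GC boxes, on the minus strand, 108, 70 and 45 bases before the start. The Cbr3 window held 2 that overlap each other, 101 and 97 bases before the start, and the windows of Akr1a1 and Cbr1 held none. Of all 32851 mouse promoter windows 35.7% held a GC box. CG dinucleotides numbered 26 for Adh5, 19 for Cbr3 and 11 each for Akr1a1 and Cbr1, against a median of 7 over all windows. Of these 4 genes, a match to CCAAT (37.4% of all windows) was found in Cbr1 only, after the start, and to TATAAA (13.6% of all windows) in none. Among the genes whose groups overlapped, CG dinucleotides numbered 27 for Akr7a5, 17 for Esd, 10 for Akr1b8 and 6 for Adh1. Their windows held 2, 6, 2 and 0 GC boxes, so neither feature was particular to the 4 genes. RefSeq gives a second start of Adh5 upstream, whose window (chr3:138436950-138437249) held no GC box, 3 CG dinucleotides and a TATAAA match 207 bases before that start. The core of the antioxidant response element, TGACNNNGC on either strand, was in none of the 10 windows given for the genes named in the opening, and in 12.4% of all windows. So few windows cannot be told apart from that share, and sequence more than 250 bases before the start was not searched. RefSeq gave a window for 9 of the 10 names, without Akr1b3.

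The tests of single genes depended on which KO libraries were used. Without KO 1 and KO 2, the female libraries, 6 of the 9 genes were called as higher in KO (Adh5, Akr1a1, Akr1b3, Akr7a5, Cbr1 and Cbr3), where 17.6% of all genes were called as higher and 26.7% as lower. With sex as a covariate the fold changes were the same as without KO 1 and KO 2, since both female libraries are KO and the fit then sets KO 3 and KO 4 against WT, so this is no second line of evidence. The same 6 genes were called, where 12.6% of all genes were called as higher and 21.6% as lower. Without KO 2 alone Akr1a1, Cbr1 and Cbr3 were called (3 of 9; 2.77% of all genes were called as higher and 5.28% as lower). Without KO 3 and KO 4 none of the 9 was called by limma (0.0990% of all genes were called). Sex, mt-Co1 and the 2 pairs of KO libraries cannot be told apart in these libraries.

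**Figure D3:**
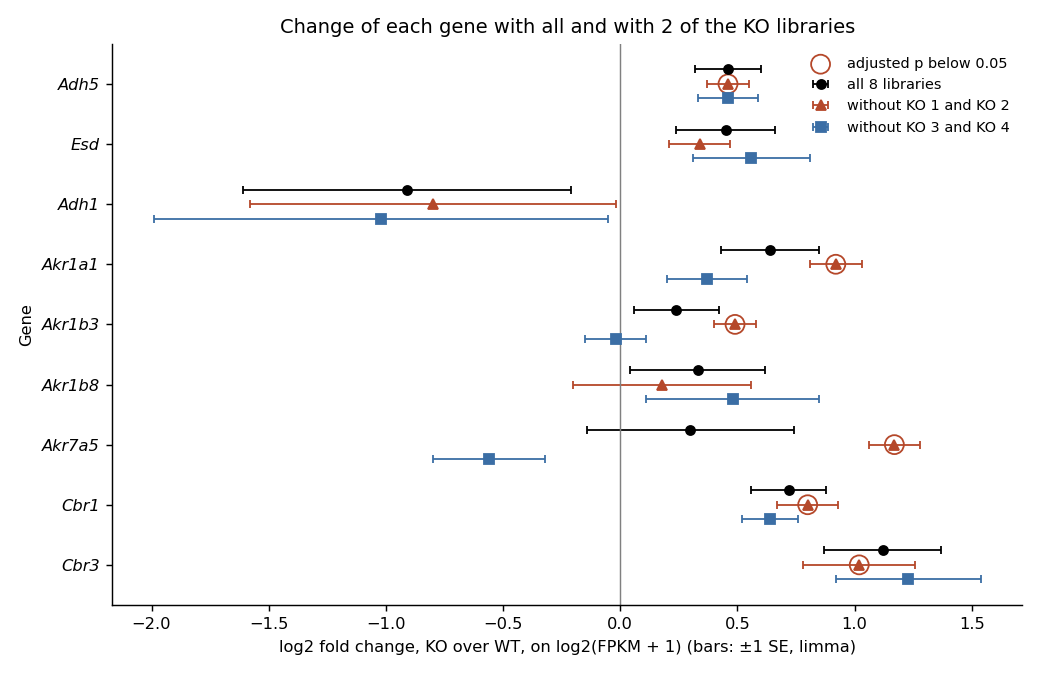
log2 fold change, KO over WT, on log2(FPKM + 1) for each of the 9 genes (rows) with all 8 libraries (black circles), without KO 1 and KO 2 (red triangles) and without KO 3 and KO 4 (blue squares); bars are ±1 SE from limma and open rings mark an adjusted p below 0.05. Adh5 stays at 0.46 in all 3 fits, while Akr7a5 lies at 0.30, 1.17 and -0.56.

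For each gene, the genes with the most similar course over the 8 libraries were sought among those of mean FPKM of at least 1. The measure was the smallest root mean square difference of log2(FPKM + 1) after centring each gene. Shared high and low libraries therefore follow from the search and are no separate result. Akr1a1 and Sars, a seryl-tRNA synthetase, differed by 0.019, where Akr1a1 itself varied by 0.383 about its mean. Sars read 80.43, 67.21, 103.30 and 106.61 FPKM in KO 1 to 4 and 52.91 to 57.18 FPKM in WT. The genes nearest to Adh5 were Dscr3 (0.059), Carhsp1 (0.067) and Tubgcp2 (0.072). Akr7a5 was nearest to Map1lc3a (0.095), Rnaseh2c (0.122) and Chac1 (0.138), and these genes too were lowest in KO 1 and highest in KO 3 and KO 4. Akr1b8 was nearest to Cryzl2 (0.138), Galm (0.142) and Txnrd3 (0.152), with WT 4 highest in each. Cbr1 was nearest to Bscl2 (0.105) and Ebp (0.106). Esd was nearest to Pecr (0.101) and Rras2 (0.106), after Timm8b, with KO 1 highest in each. Cbr3 was nearest to Copz2 (0.231) and Rab4a (0.241). Adh1 was nearest to Smtnl2 (0.288) and Kif12 (0.339). These differences were the largest, but Adh1 itself also varied most, by 1.149 about its mean. Akr1b3 was nearest to Psmd9 (0.043), a proteasome chaperone, and Dnajc11 (0.057).

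Other enzymes of the same families mostly had higher KO means, and none was called by limma with all libraries. Of 54 further alcohol, aldo-keto and short-chain dehydrogenases and reductases 36 were measured, 27 higher and 9 lower in KO (median log2 fold change 0.21). At an unadjusted p below 0.05 there were 7, all with KO higher (7.58% of all genes). Without KO 1 and KO 2 limma called 8 as higher and 1 as lower (17.6% and 26.7% of all genes). The groups did not overlap for 3 of the 36, all with KO higher (4.76% of all genes): Akr1c13, Blvra and Hsd17b4, the last 2 named after their values were seen. Akr1c13, an aldo-keto reductase with close paralogues whose reads could be shared, was at 30.87, 15.82, 20.56 and 17.67 FPKM in KO 1 to 4 and at 9.93, 11.45, 12.72 and 7.60 FPKM in WT 1 to 4 (log2 fold change 0.94, limma adjusted p = 0.138). Blvrb, biliverdin reductase B, averaged 5.46 ± 2.20 FPKM in KO and 1.94 ± 0.946 FPKM in WT (SD, n = 4 each). Ptgr1, which reduces prostaglandin and leukotriene derivatives, averaged 13.8 ± 2.69 FPKM in KO and 8.32 ± 2.20 FPKM in WT (n = 4 each). Hsd17b10, a mitochondrial short-chain dehydrogenase, averaged 48.8 ± 14.2 FPKM in KO and 29.8 ± 3.90 FPKM in WT.

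All 13 genes of a list for formaldehyde and methylglyoxal handling were measured, 10 higher and 3 lower in KO (median 0.29). Limma called none with all libraries. It called 3, all higher, without KO 1 and KO 2, where 17.6% of all genes were called as higher and 26.7% as lower. Park7, a protein of oxidative stress defence, averaged 68.9 ± 23.7 FPKM in KO and 39.3 ± 4.75 FPKM in WT (SD, n = 4 each). Gsr, glutathione reductase, had the lower KO mean, at 68.2 ± 16.1 FPKM in KO and 99.1 ± 14.3 FPKM in WT. Gss, glutathione synthetase, averaged 13.3 FPKM in KO and 8.57 FPKM in WT, and Shmt2, a mitochondrial serine hydroxymethyltransferase, 37.2 FPKM in KO and 25.0 FPKM in WT. Glo1, glyoxalase 1, named after its values were seen, was the only one whose groups did not overlap (4.76% of all genes were apart with KO higher). It was at 50.2 to 92.8 FPKM in KO and 43.4 to 47.7 FPKM in WT libraries (log2 fold change 0.36, limma adjusted p = 0.369).

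In the polyol and glucuronate pathways around Akr1b3 and Akr1a1, 9 of 11 genes were measured, 7 higher and 2 lower in KO (median 0.19). Limma called none with all libraries. It called 2 as higher and 1 as lower without KO 1 and KO 2 (17.6% and 26.7% of all genes). Rgn, the gluconolactonase downstream of Akr1a1 in ascorbate synthesis, was apart in the other direction, at 0.556 to 1.03 FPKM in KO and 1.86 to 2.51 FPKM in WT libraries (log2 fold change -0.77, limma adjusted p = 0.103; 6.86% of all genes were apart with KO lower). Dcxr, which reduces xylulose, averaged 39.4 ± 16.8 FPKM in KO and 16.7 ± 7.29 FPKM in WT (SD, n = 4 each). Sord, which oxidises the sorbitol made by Akr1b3, averaged 6.65 ± 3.19 FPKM in KO and 3.03 ± 1.87 FPKM in WT. Tkfc, a kinase of dihydroxyacetone and glyceraldehyde, averaged 19.0 FPKM in KO and 14.5 FPKM in WT.

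Several of the reductases described here are known targets of Nrf2, the antioxidant transcription factor encoded by Nfe2l2. All 27 genes of a list of Nrf2 regulators and targets were measured, 23 higher and 4 lower in KO (median 0.45). Limma called none with all libraries. It called 9 as higher and 1 as lower without KO 1 and KO 2 (17.6% and 26.7% of all genes). Blvrb, Nqo1, Gclc, Gclm and Gsr are also in a list described above, as Sord and Dcxr are in 2, so the lists are not independent. An unadjusted limma p below 0.05 was reached by 10 of the 27 with KO higher and 2 with KO lower (7.58% and 11.6% of all genes). The groups were apart for 4, all with KO higher (4.76% of all genes): Ephx1, Ftl1, Pgd and Hmox1, the first 2 named after their values were seen. Ephx1, the microsomal epoxide hydrolase, was at 153.35, 120.19, 211.05 and 241.45 FPKM in KO 1 to 4 and at 81.57 to 111.83 FPKM in WT libraries. The 4 genes named by lowest p were Hmox1, Pgd, Blvrb and Taldo1, with log2 fold changes of 0.67, 0.67, 1.12 and 0.84. Nfe2l2 itself, also chosen after its values were seen, averaged 38.6 FPKM in KO and 54.7 FPKM in WT (log2 fold change -0.49, limma adjusted p = 0.205). Macrophages express several genes of the list, and their summed markers, given above, were highest in KO 2, KO 4 and WT 1. Their part in these values was not tested.

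**Figure D4:**
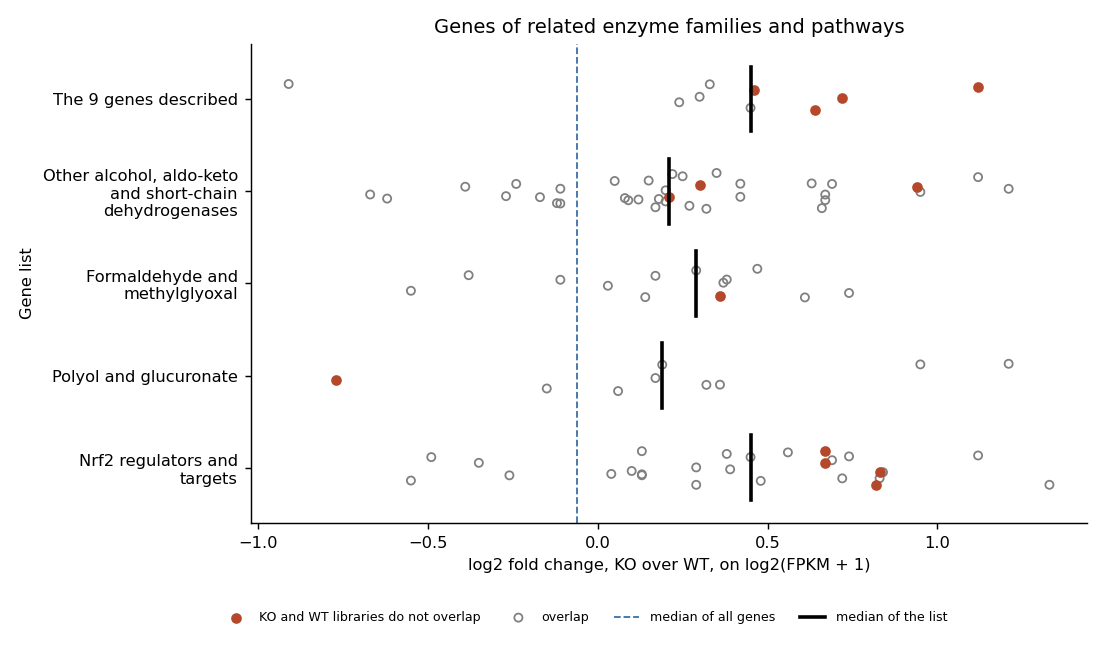
log2 fold change, KO over WT, on log2(FPKM + 1) for the 9 genes described and the measured genes of 4 related lists (rows); filled dots are genes whose KO and WT libraries do not overlap, open dots the others, black ticks the list medians (0.45, 0.21, 0.29, 0.19 and 0.45 from top to bottom) and the dashed line the median of all genes (-0.06). Adh1 is the lowest dot in the top row, at -0.91. Of the listed genes 7 are in 2 lists and are drawn in both.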

How the data were processed

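RNA-seq values of 8 libraries (4 KO, 4 WT) came from 1 table. Per the submitters' processing notes, FastQC, STAR 2.4.1d, DESeq2 and build GRCm38 were used; the sources used here name no counter, annotation or row filter. The authors deposited decimal values, read as FPKM from the recovery of whole reads below, with log2 fold changes (infinite for 15 genes), p-values and adjusted p-values of their own. No column was without a sample (0). Multiplied by exon length in GENCODE M21 (14134 of 14145 genes), 94.9% to 95.5% of values of 1 to 200 reads lay within 0.05 read of a whole number, which gave depths and reads. The deposited coordinates of Cbr1 differ from that annotation, so no reads are given for Cbr1. It was kept, with its length in that annotation, in limma-voom and in the length and GC correction. Whether counting used strand is not given; antisense genes are annotated across Adh1 and Akr1b3. No pair of the same group agreed within counting noise (chi-square of 11.71 a gene for WT 2 and WT 3, the closest, and 40.61 to 330.1 for the others), so no library was taken as deposited more than once; this does not show separate mice.

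Log2(FPKM + 1) of all genes was fitted with limma 3.58.1 (R 4.3.3, variance trend, genotype only). A check of the fit on simulated data drew both groups from the means and spread of the WT libraries. It does not cover the larger KO spread of genes such as Cbr1 and Akr1a1. Ratios were taken on FPKM + 1 and had 2-sided exact permutation tests (scipy 1.17.1). Members, lists and tests were chosen with earlier results of these data known. Named were all members, up to 4 genes of each list by lowest p, and up to 3 genes of the most similar course per member; others are marked as named after their values were seen. Alternatives were other pseudocounts, a filter on low values, median-ratio scaling, no variance trend, limma-voom on recovered reads, the replicate block, a sex covariate, a length and GC correction, and leaving out libraries.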

Additional observations from a re-analysis of the deposited data

Results flagged for a closer look

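In 3 of the 18 groups of 4 libraries formed by the 9 genes, 1 library stood apart from the other 3 by a gap above Dixon's 95% critical value, which chance passes in about 5% of groups. Cbr1 in KO 4 read 91.74 FPKM, against 68.23 to 71.89 FPKM in KO 1 to 3. Adh1 in WT 4 read 17.74 FPKM, against 1.48 to 3.81 FPKM in WT 1 to 3, and Akr1b8 in WT 4 read 92.41 FPKM, against 37.28 to 40.08 FPKM in WT 1 to 3. No cause of these values was tested.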

How the results depend on the processing

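With all libraries 11 genes were called; there were 3 with a pseudocount of 0.1, 7 with limma-voom, 1 with the replicate block, 1 after removal of a fitted length and GC trend, 4838 with the sex covariate and 6275 without KO 1 and KO 2 (which give the same fold changes by design), and 1 to 1139 without single libraries. Of the 9 genes described 0 were called with all libraries, 6 with the sex covariate, 6 without KO 1 and KO 2, and 0 to 3 without single libraries (3 without KO 2). Akr1b3 turned to -0.02 without KO 3 and KO 4. Akr7a5 turned to -0.56 without KO 3 and KO 4, to -0.03 with the length and GC trend removed, and ranged from -0.0048 (without KO 3) to 0.73 without single libraries. The other 7 genes kept their direction in all 19 alternatives. The log2 ratio of Akr1b8 to Akr1b3 (0.09) turned to -0.31 without KO 1 and KO 2 and ranged from -0.07 to 0.42 without single libraries; that of Esd to Adh5 (-0.02) turned to 0.10 without KO 3 and KO 4 and ranged from -0.15 to 0.07, and that of Cbr3 to Cbr1 (0.40) was 0.22 without KO 1 and KO 2 and 0.19 to 0.50 without single libraries. Fewer libraries also leave these permutation tests unable to pass 0.05. The causes of these changes were not tested. Replicate numbers are shared between the groups, but same-numbered libraries deviated with correlations of -0.202 to 0.56, so the numbers were not taken as pairs; the replicate block called none of the 9 genes (0 by limma). For Cbr3 the spread between libraries (coefficients of variation of 31.4% in KO and 28.1% in WT) exceeds the largest counting error of 11.1%.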
